A study of Mus musculus with 8 samples.

Results

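Complex I of the respiratory chain was examined through its nuclear-encoded subunits, as mRNA in the hearts of 4 groups of mice. Its members were the genes of the deposited expression table whose mouse symbol has the form Nduf followed by a, b, c, s or v and a number, without assembly factors and pseudogenes, and with 1 FPKM or more in 2 or more libraries. FPKM are fragment counts divided by transcript length and by library size. Of 25929 listed genes, 40 symbols had this form and 36 genes (0.139% of the table) were members. The annotation holds Ndufb4c and Ndufs6b as processed pseudogenes and Ndufb1-ps as a noncoding RNA, and these 3 were left out. The remaining gene, the core subunit Ndufs3, fell below the minimum. All 36 members reached 1 FPKM in every library, so none was kept through a single group.

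Complex I (NADH:ubiquinone oxidoreductase) takes electrons from NADH, passes them to ubiquinone and pumps protons across the inner mitochondrial membrane, and the heart is rich in it. Its L shape has a matrix arm, which holds the NADH site, the iron-sulfur clusters and the quinone site, and a membrane arm, which holds the proton pumps. The core of the matrix arm is encoded in the nucleus, the core of the membrane arm in mitochondrial DNA, and around both lie accessory subunits, all encoded in the nucleus. Here the members were ordered by these places, as 6 core subunits, 9 accessory subunits of the matrix arm, 9 of the proximal membrane arm, 10 of the distal membrane arm, and the pair Ndufa4 and Ndufa4l2, which carry the name although Ndufa4 is now assigned to complex IV.

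The libraries came from wild-type (WT, labelled C57BL/6) mice and fat-1 transgenic littermates (labelled Fat-1), which express the n-3 fatty acid desaturase gene of Caenorhabditis elegans. At 3 months of age the mice had sham surgery or transverse aortic constriction (TAC), which loads the left ventricle with pressure, and the hearts were studied after 8 weeks. There were 2 libraries from independent samples per genotype and surgery, and they are called here by both and a number, as in WT-Sham2, WT-TAC1, Fat1-Sham1 or Fat1-TAC2. The labels name ventricular tissue and the methods whole hearts, and the promoter that drives the transgene is not given in the sources used here.

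Depth lay between 14163994 and 21218331 fragments, and the members held between 0.665% and 1.26% of them. WT-TAC1 stood apart from all other libraries: its median FPKM over all genes was 2.61 against 0.823 to 1.58 elsewhere, its mitochondrially encoded genes made up 11.7% of fragments against 19.3% to 27.6%, and 8 thymocyte and T cell markers summed to 1819 FPKM against 1.16 to 3.54. In both WT-TAC libraries 12 markers of lung and airway epithelium summed to 1697 and 3796 FPKM, against 86.3 in Fat1-Sham1 and 2.64 to 5.17 elsewhere. The 18 cardiomyocyte markers were detected in every library, and the 5 atrial markers summed to between 1031 and 3801 FPKM in the WT libraries and Fat1-Sham1 and to between 25.8 and 52.8 in the other 3. The medians and counts of the members, the medians of their groups and those of the other complexes are therefore also given without WT-TAC1, while most values of single genes are given with it only.

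The members spanned a wide range of levels, and their order was nearly the same in all libraries. Ndufa4 was highest, with a mean of 1167 FPKM over the 8 libraries, and high levels were also seen for the matrix arm subunit Ndufa5 (819), the distal subunit Ndufb9 (798) and the proximal subunit Ndufa3 (788). Altogether 32 members had a mean of 100 FPKM or more. Below this lay Ndufb7 (97.8 FPKM), Ndufa11 (84.5), Ndufa4l2 (17.3) and Ndufb2 (3.47). Between any 2 libraries, Spearman's rho over the members lay between 0.955 and 0.996 for the 28 pairs. FPKM are values per length, so this order depends on the lengths used. The lengths recovered from the FPKM ran from 419 to 2661 bases with a median of 739, and 7 matched an annotated transcript. Ndufa11 (2661) and Ndufb7 (2529) were far above that median. Ndufb7 held 3091 to 5533 fragments per library, and Ndufs8 (963 bases), with a higher mean of 211 FPKM, held 2583 to 4458.

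Just inside the minimum, Ndufb2, an accessory subunit at the tip of the membrane arm, had 2.60 and 3.32 FPKM in WT-Sham, 5.08 and 4.05 in WT-TAC, 3.55 and 3.44 in Fat1-Sham and 2.87 and 2.87 in Fat1-TAC. These values rested on 46 to 126 fragments per library, and exons of Ndufb2 overlap the predicted gene Gm42420 on the same strand. Just outside it, Ndufs3 (chromosome 2, 90894634 to 90904827 in GRCm38), a core subunit of the quinone module, was listed at 0 in 6 libraries, at 0.0675 FPKM in WT-Sham2 and at 0.0798 in WT-TAC2. That is 1 fragment in each of these 2 libraries, while the core subunits named below ran from 135 to 799 FPKM. The cause of this near absence was not tested, and Ndufs3 enters no count below.

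**Figure D1:**
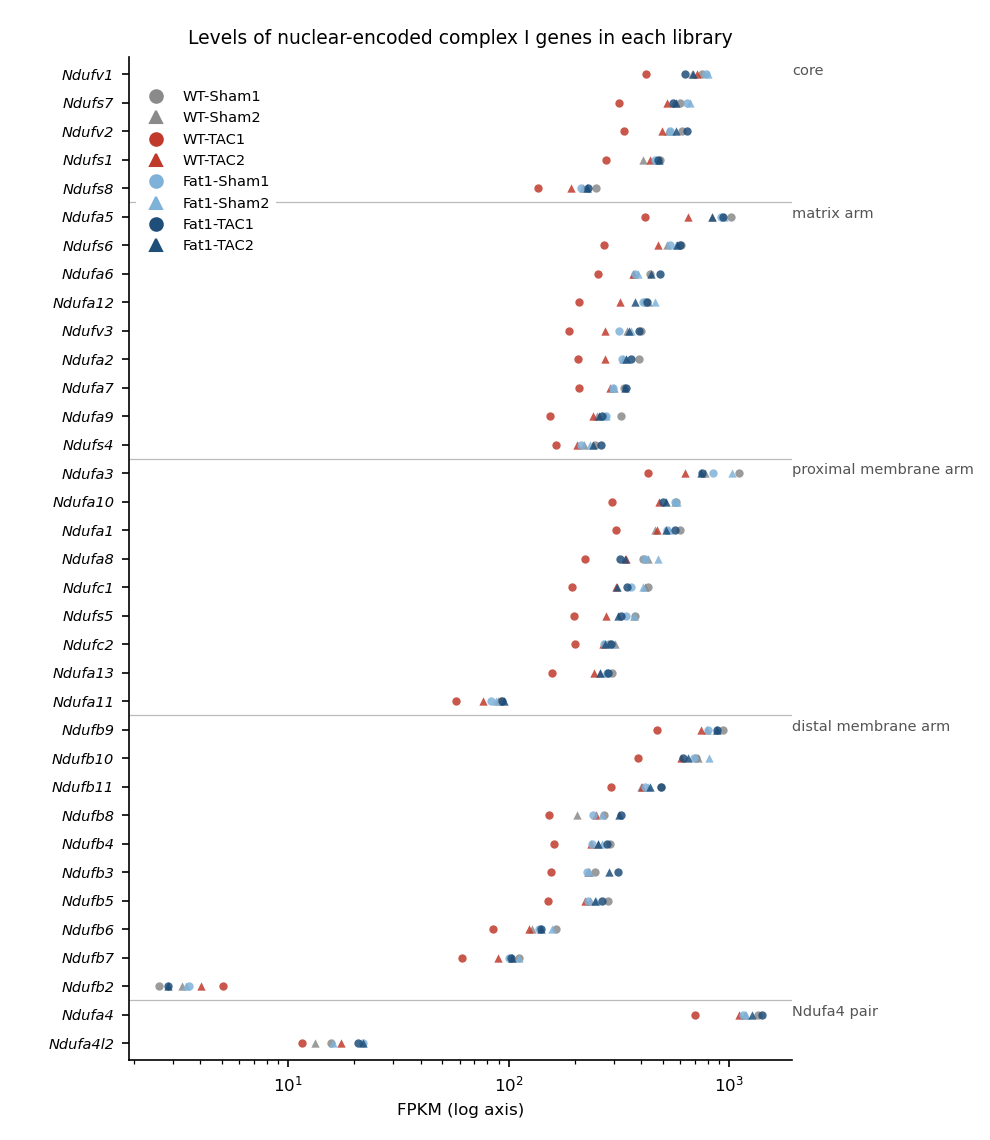
FPKM (log axis) of 35 of the 36 members in each of the 8 libraries, grouped by place in the complex and ordered by mean level. WT-TAC1 (red circles) was the lowest library for every member drawn except Ndufb2, at 2.60 to 5.08 FPKM.

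The spelling of the rule leaves out Ndufab1, the mitochondrial acyl carrier protein that sits in both arms of the complex. It had 91.9 and 77.6 FPKM in WT-Sham, 60.2 and 82.03 in WT-TAC, 86.5 and 87.4 in Fat1-Sham and 87.2 and 85.7 in Fat1-TAC. Its values were lowest in WT-TAC1, and WT-TAC2 lay within the range of WT-Sham. The processed pseudogenes Ndufb4c (6.08 to 25.2 FPKM) and Ndufs6b (19.1 to 40.8 FPKM) can share reads with Ndufb4 and Ndufs6, so the values of these 2 members are uncertain to that extent. Opposite-strand neighbours covered 39.0% of the exonic bases of Ndufb6 (Smim27) and 375 of those of Ndufa13 (Tssk6), and on the same strand Gm49356 covered 19.5% of those of Ndufb9. Whether counting used strand is not given in the sources used here.

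The members lie on 15 chromosomes, with at most 5 on the same one (17). Promoter windows of RefSeq (GRCm38.p6), from 250 bases before to 50 bases after the start, were found for 31 members. Because the members moved together between libraries, letters bound by known regulators of respiratory genes were searched on both strands. The motif of NRF1 (GCGCA, any base, then GCGC), a factor known to act on nuclear genes of the respiratory chain, stood in the windows of 7 of 31 members (22.6%), Ndufa5, Ndufa6, Ndufa8, Ndufa11, Ndufb4, Ndufs5 and Ndufs6, and in those of 5.19% of the 27025 genes with a window. The motif AAGATGGC of YY1 was in those of 7 members (22.6%), Ndufa3, Ndufa9, Ndufb8, Ndufc1, Ndufs4, Ndufs6 and Ndufs7, each after the start at positions 23 to 39, and in those of 3.19% of all genes. The motif CCGGAAG of ETS factors (Ndufb6, Ndufb7 and Ndufs8) and the half-site AAGGTCA of estrogen-related receptors (Ndufb2, Ndufb4 and Ndufs5) were each in 3 members (9.68%), against 9.93% and 5.38% of all genes. These are matches of letters, with no binding measured here.

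Stretches of 3 promoters are shown, because they hold a motif before the start and touch no annotated exon, 5′ to 3′ on the strand of the gene with the motif in capitals. Those of Ndufs5 (chr4:123718245-123718314, minus strand) and Ndufb4 (chr16:37654520-37654589, minus strand) hold the NRF1 motif, from base -98 and base -191, where -1 is the last base before the start. That of Ndufb2 (chr6:39592354-39592420, plus strand), the only member with a higher mean in WT-TAC below, holds the half-site of estrogen-related receptors from base -181.
Ndufs5: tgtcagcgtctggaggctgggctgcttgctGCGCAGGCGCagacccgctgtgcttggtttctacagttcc
Ndufb4: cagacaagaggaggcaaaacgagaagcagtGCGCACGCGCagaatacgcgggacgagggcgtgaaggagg
Ndufb2: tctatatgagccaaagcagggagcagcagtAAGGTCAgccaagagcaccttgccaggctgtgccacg

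In WT-TAC against WT-Sham, the comparison described next, the 7 members with the NRF1 motif had a median log2 fold change of -0.60 (-0.83 to -0.39) and the 24 without it one of -0.49 (-0.84 to 0.49). The medians with and without the motif were -0.56 and -0.49 for YY1, -0.52 and -0.49 for ETS factors and -0.47 and -0.50 for the half-site of estrogen-related receptors, and no test was made of these differences.

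Pressure overload was compared with sham surgery in WT hearts first. In WT-TAC, 35 of 36 members had a lower mean than in WT-Sham, and only Ndufb2 had a higher one. The median log2 fold change of the members was -0.49, beside 0.39 over all 14442 genes tested, and most members lay in a narrow band, with an interquartile range of -0.59 to -0.38. By the study's own cutoff for respiratory chain genes, an unadjusted p under 0.05 with a fold change of 1.5, 10 members (27.8%) were lower and 0 higher, where 1.11% of all genes were lower and 22.7% higher. At an adjusted p under 0.1 (limma with Benjamini-Hochberg adjustment over all genes), 0 members passed, beside 0.0138% of all genes lower and 0.921% higher, and the smallest adjusted p of a member was 0.175. All 8 libraries entered that fit, which shares the spread over the 4 groups. An exact permutation test on 4 libraries split into pairs has 0.333 as its smallest possible two-sided p.

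In 28 members (77.8%) both WT-TAC libraries lay below both WT-Sham libraries, against 7.09% of all genes, and in 1 above both, against 52.5%, but the 2 WT-TAC libraries did not do so equally. WT-TAC1 was below both WT-Sham libraries in 35 members and WT-TAC2 in 28. Over the members, WT-TAC1 had a median of 57.7% of the WT-Sham mean and WT-TAC2 one of 86.5%. Without WT-TAC1 the median log2 fold change was -0.20, beside 0.21 over all genes, 3 members (Ndufa4l2, Ndufb2 and Ndufb8) had a higher mean, and 0 members passed the unadjusted cutoff, beside 0.436% of all genes lower and 9.21% higher. Without WT-TAC2 the median was -0.78, with 32 members lower and 1 higher at that cutoff, and 33 passed the adjusted one in either direction. In that second fit 6.31% of all genes were lower and 45.0% higher at the adjusted cutoff, and in both fits the lone WT-TAC library is assumed to vary like the other groups. Without WT-Sham1 the median was -0.40, beside 0.30 over all genes.

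The 6 core subunits carry the flavin, the iron-sulfur clusters and the quinone site. Ndufv1 (chromosome 19, 4007384 to 4012806 in GRCm38), which binds NADH and the flavin, had 754 and 676 FPKM in WT-Sham, 419 and 713 in WT-TAC, 786 and 799 in Fat1-Sham and 633 and 682 in Fat1-TAC. Ndufv2 (chromosome 17, 66078638 to 66101559), its iron-sulfur partner, had 612 and 528 FPKM in WT-Sham, 334 and 495 in WT-TAC, 537 and 543 in Fat1-Sham and 641 and 571 in Fat1-TAC. Ndufs1 (chromosome 1, 63143596 to 63176833), the largest subunit and holder of further clusters, had 484 and 407 FPKM in WT-Sham, 275 and 438 in WT-TAC, 460.3 and 464 in Fat1-Sham and 477 and 481 in Fat1-TAC. WT-TAC1 was the lowest library for all 3, whereas WT-TAC2 lay below both WT-Sham libraries for Ndufv2 only. The log2 fold change of WT-TAC against WT-Sham was -0.38 (standard error 0.25, limma adjusted p = 0.299) for Ndufv1, -0.48 (standard error 0.22, limma adjusted p = 0.186) for Ndufv2 and -0.35 (standard error 0.23, limma adjusted p = 0.299) for Ndufs1.

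Ndufs7 and Ndufs8 belong to the quinone end of the matrix arm. Ndufs7 (chromosome 10, 80249121 to 80256794), which takes part in the quinone site, had 596 and 562 FPKM in WT-Sham, 317 and 522 in WT-TAC, 643 and 663 in Fat1-Sham and 558 and 576 in Fat1-TAC. Ndufs8 (chromosome 19, 3908863 to 3912774), which holds a pair of clusters on the way to the quinone, had 249 and 218 FPKM in WT-Sham, 135 and 191 in WT-TAC, 212 and 227 in Fat1-Sham and 229 and 226 in Fat1-TAC. For Ndufs7 and Ndufs8 both WT-TAC libraries were below both WT-Sham libraries. The log2 fold change was -0.53 (standard error 0.19, limma adjusted p = 0.175) for Ndufs8 and -0.51 (standard error 0.24, limma adjusted p = 0.194) for Ndufs7. No core subunit passed the unadjusted cutoff, beside 1.11% of all genes lower at it. Ndufs8, with an unadjusted limma p of 0.0254, missed the fold change of 1.5.

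The accessory subunits of the matrix arm showed a lower median, -0.59. All 9 were lower in both WT-TAC libraries than in both WT-Sham libraries, against 7.09% of all genes. Of these, 5 (55.6%) passed the unadjusted cutoff, against 1.11% of all genes lower at it. Ndufa5, a small subunit on the side of the quinone module, had 1021 and 836 FPKM in WT-Sham, 416 and 649.7 in WT-TAC, 914 and 946 in Fat1-Sham and 939 and 833 in Fat1-TAC. Ndufa12, a relative of the assembly factor Ndufaf2, had 417 and 428 FPKM in WT-Sham, 209 and 319 in WT-TAC, 407 and 463 in Fat1-Sham and 423 and 375 in Fat1-TAC. Both WT-TAC libraries were the lowest of all 8 for these 2 genes. The log2 fold change was -0.83 (standard error 0.24, limma adjusted p = 0.175) for Ndufa5 and -0.71 (standard error 0.22, limma adjusted p = 0.175) for Ndufa12. Ndufv3 (-0.70), the zinc-binding Ndufs6 (-0.65) and Ndufa2 (-0.59), which has a thioredoxin-like fold, also passed, with limma adjusted p-values between 0.175 and 0.179.

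At the upper end of this group were Ndufs4 and Ndufa7. Ndufs4, whose loss in humans causes Leigh syndrome, had 247 and 219.6 FPKM in WT-Sham, 164 and 204 in WT-TAC, 212 and 234 in Fat1-Sham and 263 and 241 in Fat1-TAC. Ndufa7 had 334 and 301 FPKM in WT-Sham, 209 and 287 in WT-TAC, 297 and 298 in Fat1-Sham and 339 and 336 in Fat1-TAC. The distance between the groups was smaller here, with WT-TAC2 under the lower WT-Sham library but near it. Their log2 fold changes were -0.35 (standard error 0.17, limma adjusted p = 0.196) and -0.37 (standard error 0.18, limma adjusted p = 0.201), and Ndufa6, a LYR-motif protein that binds the acyl carrier, lay near them at -0.39.

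In the proximal membrane arm the median was -0.60, and 8 of 9 members (88.9%) were lower without overlap, against 7.09% of all genes. Ndufa3, a small membrane subunit, had 1107 and 779 FPKM in WT-Sham, 430.1 and 627 in WT-TAC, 844 and 1026 in Fat1-Sham and 749.7 and 743 in Fat1-TAC. Ndufc1, another, had 429 and 417 FPKM in WT-Sham, 193 and 308 in WT-TAC, 357 and 407 in Fat1-Sham and 344 and 311 in Fat1-TAC. In both genes each WT-TAC library was below each WT-Sham library, and for Ndufa3 the WT-Sham libraries themselves lay far apart. Their log2 fold changes of -0.84 (standard error 0.26, limma adjusted p = 0.175) and -0.79 (standard error 0.23, limma adjusted p = 0.175) were, with that of Ndufa5, the 3 lowest of the 36. Ndufs5 (-0.66) and Ndufa8 (-0.60), which carry twin CX9C motifs and face the intermembrane space, and the kinase-like Ndufa10 (-0.60) also passed the unadjusted cutoff. In this group 5 of 9 members (55.6%) passed it, against 1.11% of all genes lower at it.

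Ndufa11, a relative of the Tim17 family of membrane translocases, had 92.4 and 89.8 FPKM in WT-Sham, 57.7 and 76.9 in WT-TAC, 83.0 and 87.2 in Fat1-Sham and 93.1 and 95.6 in Fat1-TAC. Ndufc2 had 285 and 305 FPKM in WT-Sham, 199.9 and 267 in WT-TAC, 271 and 293 in Fat1-Sham and 293 and 273 in Fat1-TAC. Neither overlapped between the groups, and the log2 fold changes were -0.45 (standard error 0.16, limma adjusted p = 0.176) and -0.35 (standard error 0.18, limma adjusted p = 0.21). The only overlapping member of the group was Ndufa1, an X-linked membrane subunit, at -0.47.

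In the distal membrane arm the median was -0.48 with 0 members past the unadjusted cutoff, beside 1.11% of all genes lower at it. Without WT-TAC1 the medians were -0.11 for the core, -0.24 for the matrix arm, -0.25 for the proximal and -0.20 for the distal membrane arm. Ndufb10, a CX9C protein, had 709 and 721 FPKM in WT-Sham, 387 and 605 in WT-TAC, 694 and 808 in Fat1-Sham and 616 and 649 in Fat1-TAC. Ndufb9, a LYR-motif protein, had 937 and 791 FPKM in WT-Sham, 471 and 746 in WT-TAC, 805 and 870.2 in Fat1-Sham and 881 and 884 in Fat1-TAC. For both, each WT-TAC library was below each WT-Sham library, and the log2 fold changes were -0.56 (standard error 0.23, limma adjusted p = 0.181) and -0.54 (standard error 0.24, limma adjusted p = 0.186). At the other end, Ndufb8, a membrane subunit often used as a protein marker of the assembled complex, had 269 and 204 FPKM in WT-Sham, 153 and 249 in WT-TAC, 242 and 265 in Fat1-Sham and 322 and 315 in Fat1-TAC, so that WT-TAC2 was within the WT-Sham range and its change of -0.27 (standard error 0.25, limma adjusted p = 0.453) became 0.09 without WT-TAC1. Both WT-TAC libraries exceeded the 6 others for Ndufb2, and its log2 value of 0.49 (standard error 0.22, limma adjusted p = 0.184) is one that understates the change at so low a level and that became -0.08 under quantile normalization.

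Ndufa4 and its relative Ndufa4l2, a gene induced by hypoxia, differed in level and in change. Ndufa4 (chromosome 6, 11900292 to 11907497) had 1348 and 1176 FPKM in WT-Sham, 699.9 and 1105 in WT-TAC, 1149 and 1186 in Fat1-Sham and 1405 and 1266 in Fat1-TAC. Ndufa4l2 (chromosome 10, 127514967 to 127517154) had 15.7 and 13.3 FPKM in WT-Sham, 11.6 and 17.3 in WT-TAC, 21.9 and 16.05 in Fat1-Sham and 20.7 and 21.8 in Fat1-TAC. Both WT-TAC libraries were the lowest of all 8 for Ndufa4, whereas those of Ndufa4l2 lay on either side of WT-Sham. The log2 fold change of WT-TAC against WT-Sham was -0.52 (standard error 0.25, limma adjusted p = 0.197) for Ndufa4 and -0.03 (standard error 0.24, limma adjusted p = 0.939) for Ndufa4l2.

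**Figure D2:**
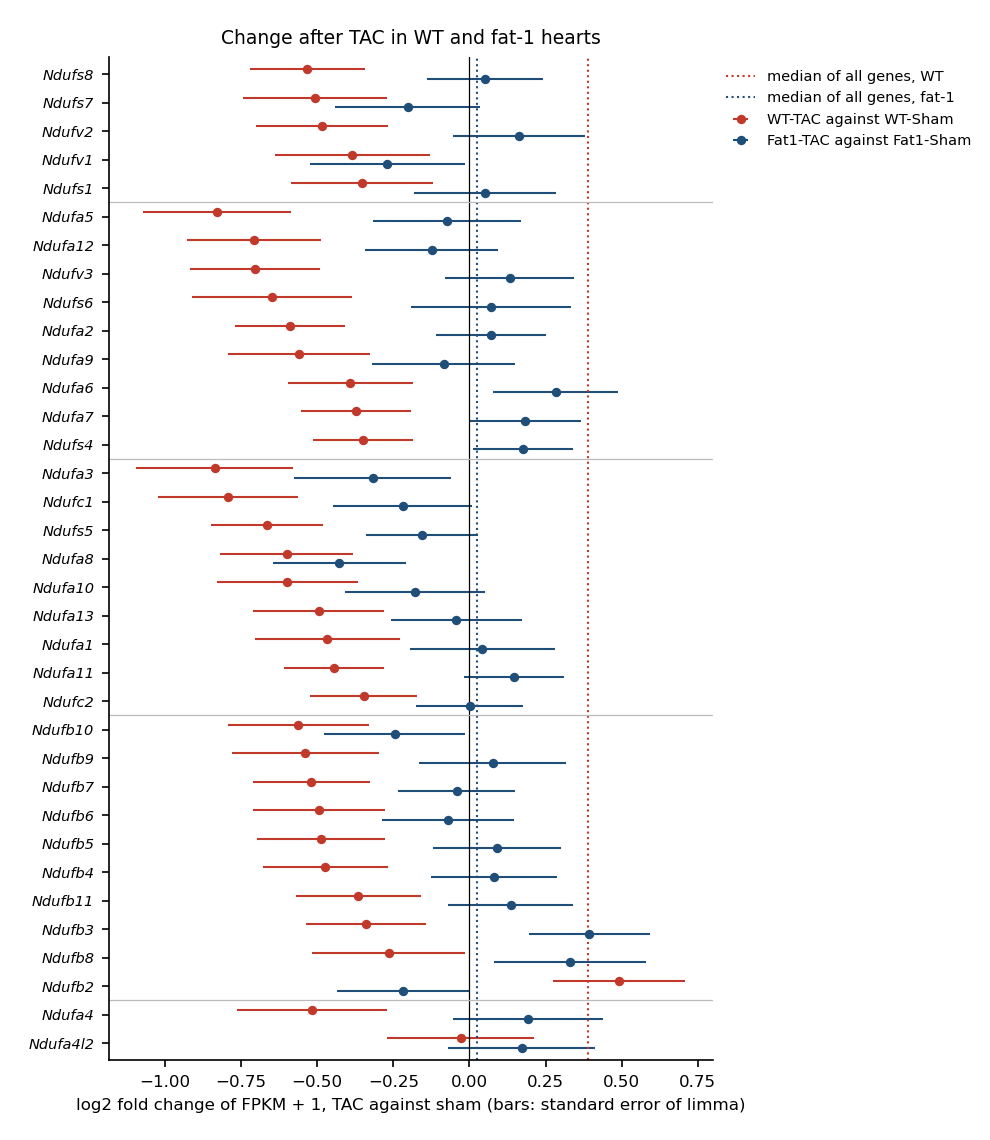
Log2 fold change of FPKM + 1 after TAC for 35 of the 36 members in WT (red) and fat-1 (blue) hearts, with the standard error of limma and the median of all genes as dotted lines. In WT hearts every member drawn except Ndufb2 lay below 0, and the medians over all 36 were -0.49 in WT and 0.05 in fat-1 hearts.

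The same comparison in fat-1 hearts gave a median close to that of all genes. Between Fat1-TAC and Fat1-Sham, 16 members had a lower and 20 a higher mean, the median log2 fold change was 0.05, beside 0.02 over all genes, with an interquartile range of -0.13 to 0.14. No member passed the unadjusted cutoff, beside 0.533% of all genes lower and 1.33% higher, nor the adjusted one, beside 0.0% lower and 0.00692% higher, and every limma adjusted p was 1. The libraries did not overlap for 11 members that were lower (30.6%) and 12 that were higher (33.3%), against 21.5% and 26.8% of all genes.

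The proximal membrane arm had a median of -0.16, with 6 members below and 3 above 0. In 5 of its 9 members (55.6%) both Fat1-TAC libraries were below both Fat1-Sham libraries, against 21.5% of all genes. The distal arm had a median of 0.08, with 4 members below and 6 above 0. Of its 10 members 4 (40.0%) were higher without overlap, against 26.8% of all genes, and 2 (20.0%) lower, against 21.5%. Such shares were not limited to the membrane arm. In the matrix arm (median 0.07) 4 of 9 members (44.4%) were higher without overlap and 1 (11.1%) lower. In the core (median -0.01) 2 of 6 (33.3%) were higher and 3 (50.0%) lower. The largest differences were those of Ndufa8, -0.43 (standard error 0.22, limma adjusted p = 1), and Ndufb3, 0.39 (standard error 0.20, limma adjusted p = 1). Ndufa8 had 414 and 473 FPKM in Fat1-Sham and 321 and 337 in Fat1-TAC. Ndufb3, a distal membrane subunit, had 226 and 230.4 FPKM in Fat1-Sham and 315 and 286 in Fat1-TAC. The groups did not overlap in either gene, and neither difference passed limma's test. The same held for Ndufb8 and Ndufa6, which were higher. Ndufb8 had 242 and 265 FPKM in Fat1-Sham and 322 and 315 in Fat1-TAC (0.33), and Ndufa6 had 373 and 388 FPKM in Fat1-Sham and 484 and 442 in Fat1-TAC (0.28).

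The 2 genotypes after TAC were compared next, which asks whether hearts that make n-3 fatty acids differ from WT under pressure overload. This comparison uses the same WT-TAC libraries as the first. In Fat1-TAC 35 members had a higher mean than in WT-TAC and Ndufb2 a lower one, with a median log2 fold change of 0.47, beside -0.40 over all genes. At the unadjusted cutoff 8 members (22.2%) were higher and 0 lower, beside 1.72% of all genes higher and 23.5% lower. They were Ndufa5 (0.76), Ndufb8 (0.71), Ndufv3 (0.71), Ndufs6 (0.70), Ndufb3 (0.67), Ndufa12 (0.62), Ndufa4 (0.60) and Ndufa6 (0.59). At the adjusted cutoff 0 members passed, beside 0.0346% of all genes higher and 1.39% lower, and the smallest limma adjusted p was 0.159.

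Of these 8, 5 belong to the matrix arm, whose median was 0.59, against 0.47 for the core, 0.44 for the proximal and 0.45 for the distal arm. The libraries did not overlap for 32 members (88.9%) that were higher in Fat1-TAC, against 9.33% of all genes, and for Ndufb2, which was lower, against 57.1%. Ndufa5 had 416 and 649.7 FPKM in WT-TAC and 939 and 833 in Fat1-TAC. Ndufb8 had 153 and 249 FPKM in WT-TAC and 322 and 315 in Fat1-TAC. The core subunit Ndufv1 had 419 and 713 FPKM in WT-TAC and 633 and 682 in Fat1-TAC, so that WT-TAC2 was above both Fat1-TAC libraries. Without WT-TAC1 the median was 0.21, beside -0.20 over all genes, 3 members (Ndufa8, Ndufb2 and Ndufv1) had a lower mean in Fat1-TAC, and 0 members passed the unadjusted cutoff, beside 0.388% of all genes higher and 10.3% lower. The medians of the core, matrix, proximal and distal groups were then 0.12, 0.32, 0.15 and 0.19. Without WT-TAC2 the median was 0.76, with 33 members higher and 1 lower at the unadjusted cutoff, beside 7.23% and 45.9% of all genes, and 34 passed the adjusted one in either direction, beside 7.44% of all genes higher and 46.8% lower. Without Fat1-TAC1 the median of the members was 0.46, beside -0.37 over all genes, and without Fat1-TAC2 it was 0.51, beside -0.44.

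After sham surgery the genotypes had nearly the same median. Between Fat1-Sham and WT-Sham the median log2 fold change of the members was -0.03, beside -0.01 over all genes, with 20 members lower and 16 higher and every limma adjusted p at 1. No member passed either cutoff, beside 0.692% of all genes lower and 0.201% higher at the unadjusted one and 0.0% in each direction at the adjusted one. In 5 members (13.9%) both Fat1-Sham libraries were below both WT-Sham libraries and in 4 (11.1%) above them, shares near the 16.5% and 15.5% of all genes. Ndufa4l2 had the highest value of the members, 0.35 (standard error 0.24, limma adjusted p = 1), and both its Fat1-Sham libraries were above both WT-Sham libraries.

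Whether TAC acted differently in WT and fat-1 hearts was tested directly as an interaction. It was positive for 35 members, which means that the log2 fold change after TAC was higher in fat-1 than in WT hearts, with a median of 0.52 beside -0.37 over all genes. At the unadjusted cutoff 4 members (11.1%) passed, Ndufv3 (0.84), Ndufb3 (0.73), Ndufa2 (0.66) and Ndufa11 (0.59), beside 0.609% of all genes in that direction and 6.38% in the other. None passed the adjusted cutoff, beside 0.00692% of all genes positive and 0.0623% negative, and the smallest limma adjusted p was 0.495. Without WT-TAC1 the median was 0.26 with 0 members past the unadjusted cutoff, beside 0.568% of all genes positive and 5.55% negative. Without WT-TAC2 it was 0.79 with 31 members positive and 1 negative at that cutoff, beside 6.05% and 39.8% of all genes, and 32 passed the adjusted cutoff in either direction, beside 6.12% of all genes positive and 40.1% negative.

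In all, 9 of 36 members went different ways in the genotypes, lower in both WT-TAC libraries than in both WT-Sham libraries and higher in both Fat1-TAC libraries than in both Fat1-Sham libraries, against 1.26% of all genes. They were the core subunit Ndufv2, the matrix arm subunits Ndufa6, Ndufa7, Ndufs4 and Ndufs6, the proximal Ndufa11, the distal Ndufb3 and Ndufb9, and Ndufa4. In 8 others (22.2%) the TAC libraries were lower without overlap in both genotypes, against 2.69% of all genes.

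The members were next set against their own complex, by scaling each library to the median of ratios over the 36 members, which removes what they share. In WT-TAC against WT-Sham the values then lay between -0.35 and 0.90 with the smallest limma adjusted p at 0.127. Ndufa3 (-0.35), Ndufa5 (-0.34) and Ndufc1 (-0.30) had the lowest values and Ndufb2 (0.90), Ndufa4l2 (0.43) and Ndufb8 (0.22) the highest. Divided by the geometric mean of the members, Ndufa5 stood at 3.09 and 2.83 in WT-Sham and 2.25 and 2.38 in WT-TAC, so that the 2 WT-TAC libraries lay near each other. Ndufc1 stood at 1.30 and 1.41 in WT-Sham and 1.04 and 1.13 in WT-TAC, and at 1.18 and 1.27 in Fat1-Sham and 1.08 and 1.02 in Fat1-TAC. Both genes were picked for their low values in this comparison, so that their lower standing in each WT-TAC library is no separate result.

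In fat-1 hearts the same measure ran from -0.46 to 0.36, and every limma adjusted p was 1. The genes with the lowest values were Ndufa8 (-0.46), Ndufa3 (-0.35) and Ndufv1 (-0.30), and those with the highest Ndufb3 (0.36), Ndufb8 (0.30) and Ndufa6 (0.25), a choice made after their values were seen. Relative to the geometric mean, Ndufb3 stood at 0.744 and 0.721 in Fat1-Sham and 0.992 and 0.935 in Fat1-TAC, and at 0.748 and 0.782 in WT-Sham and 0.842 and 0.837 in WT-TAC. Ndufa8 stood at 1.36 and 1.48 in Fat1-Sham and 1.01 and 1.10 in Fat1-TAC, and at 1.24 and 1.44 in WT-Sham and 1.20 and 1.251 in WT-TAC. Ndufb3 was thus higher after TAC in both genotypes without overlap, and Ndufa8 lower without overlap in the fat-1 mice only. Over the 36 members, which are not independent replicates, the changes after TAC in WT and in fat-1 hearts share no libraries. Without this scaling they had a Pearson's r of 0.239. That value is lowered by Ndufb2, a gene near the minimum level. Its change was 0.49 in WT, where all other members lay below 0, and -0.22 in fat-1 hearts. The r without Ndufb2 was not computed.

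**Figure D3:**
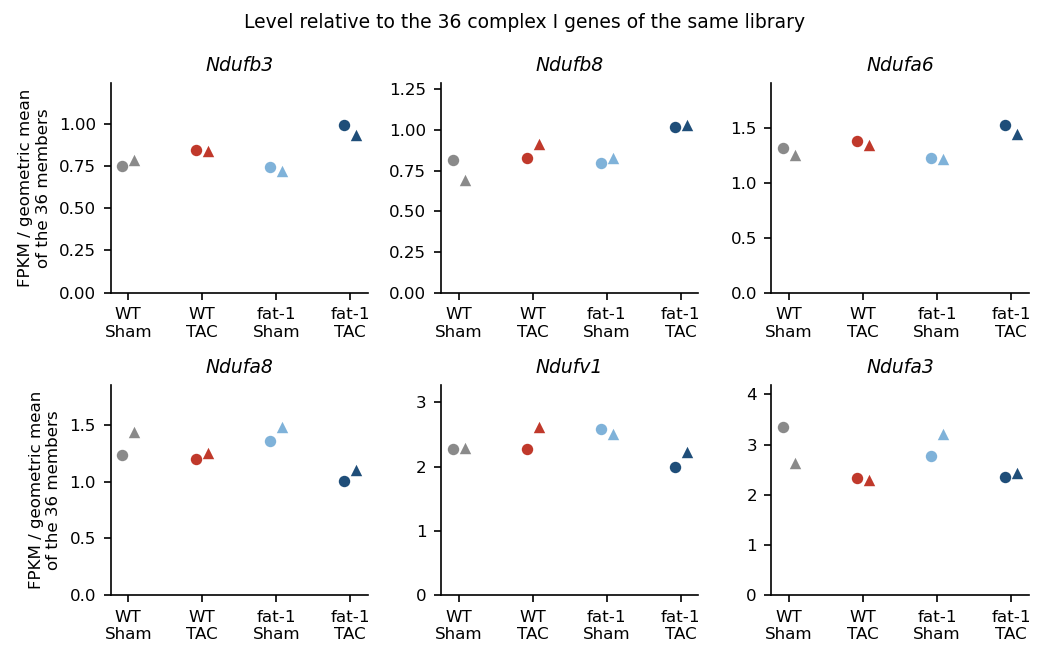
FPKM of 6 members divided by the geometric mean of all 36 members in the same library, for the 8 libraries (circles: replicate 1, triangles: replicate 2). Ndufb3 stood at 0.992 and 0.935 in Fat1-TAC, above the 6 other libraries, and Ndufa8 at 1.01 and 1.10, below them.

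The other genes of complex I and of the chain were read beside the members in WT-TAC against WT-Sham. The 7 subunits encoded in mitochondrial DNA, the proton-pumping core, had a median log2 fold change of -0.82, with 1 lower at the unadjusted cutoff (mt-Nd3, log2 fold change -1.56, limma adjusted p = 0.175). The 18 assembly factors tested, which build the complex without staying in it, had a median of -0.20 with 14 lower means and 0 past the cutoff, and Ndufaf1 was lowest (log2 fold change -0.50, limma adjusted p = 0.178). The medians were -0.34 for 4 genes of complex II and -0.50 for 9 of complex III (2 lower at the unadjusted cutoff). They were -0.63 for 13 of complex IV (6 lower) and -0.42 for 16 of complex V (3 lower). Of all genes 1.11% were lower at that cutoff. The lowest in complexes IV and V were the muscle isoform Cox6a2 (log2 fold change -0.90, limma adjusted p = 0.175) and the c-ring gene Atp5g1 (log2 fold change -0.87, limma adjusted p = 0.175). Without WT-TAC1 the medians were -0.45 for the mitochondrially encoded subunits, -0.08 for the assembly factors and -0.05, -0.21, -0.32 and -0.14 for complexes II to V. With all libraries none of these genes passed the adjusted cutoff in this comparison, and the median of the nuclear complex I genes lay within the range of the other complexes.

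In Fat1-TAC against WT-TAC the mitochondrially encoded subunits had a median of 0.88. Of these, 2 of 7 were called higher at the adjusted cutoff, against 0 of 36 nuclear members and 0.0346% of all genes. Complexes II to V had medians of 0.39, 0.53, 0.55 and 0.43, and 1 gene of complex IV was called lower, beside 1.39% of all genes. Without WT-TAC1 the median of the mitochondrially encoded subunits was 0.53, and those of complexes II to V were 0.10, 0.21, 0.28 and 0.16. The genotypes also differed for some mitochondrially encoded subunits without TAC. In Fat1-Sham against WT-Sham the 7 had a median of -0.08 and a highest value of 1.08. There, 1 of 7 was higher at the unadjusted cutoff, beside 0.201% of all genes, and none passed the adjusted one. Among 12 regulators of mitochondrial genes, WT-TAC against WT-Sham gave a median of -0.03 (0.02 without WT-TAC1), and 1 passed the unadjusted cutoff, Ppargc1a, the coactivator PGC-1α, which was lower (log2 fold change -1.01, limma adjusted p = 0.179). It had 70.8 and 30.9 FPKM in WT-Sham, 16.5 and 31.2 in WT-TAC, 46.2 and 44.9 in Fat1-Sham and 25.2 and 26.6 in Fat1-TAC. WT-Sham1 was higher than all other libraries, and WT-TAC2 lay just above WT-Sham2. Nrf1 itself had 5.10 and 6.65 FPKM in WT-Sham, 25.4 and 6.63 in WT-TAC, 6.97 and 7.38 in Fat1-Sham and 4.99 and 5.82 in Fat1-TAC, so that WT-TAC1 alone was high.

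Per library, the summed FPKM of the members were 16861 and 14797 in WT-Sham, 8769 and 13448 in WT-TAC, 15198 and 16140 in Fat1-Sham and 15776 and 15173 in Fat1-TAC. WT-TAC1 was thus at 55.4% of the WT-Sham mean and WT-TAC2 at 84.96%, while those of the remaining groups ranged from 93.5% to 106.5%. The 18 cardiomyocyte genes were at 49.6% in WT-TAC1 and 89.7% in WT-TAC2. The subunits of mitochondrial DNA were at 46.9% and 76.9%, the assembly factors at 77.8% and 93.0%, and cytosolic ribosomal protein genes at 183.4% and 105.0%. The ratio of the members to the cardiomyocyte genes was 0.245 and 0.225 in WT-Sham and 0.263 and 0.223 in WT-TAC. It was 0.223 and 0.206 in Fat1-Sham and 0.226 and 0.211 in Fat1-TAC. TAC and sham overlapped in each genotype, and the genotypes overlapped after TAC, whereas both Fat1-Sham libraries lay below both WT-Sham libraries. In tissue libraries such as these, fewer cardiomyocytes and less of these mRNAs per cardiomyocyte cannot be told apart.

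**Figure D4:**
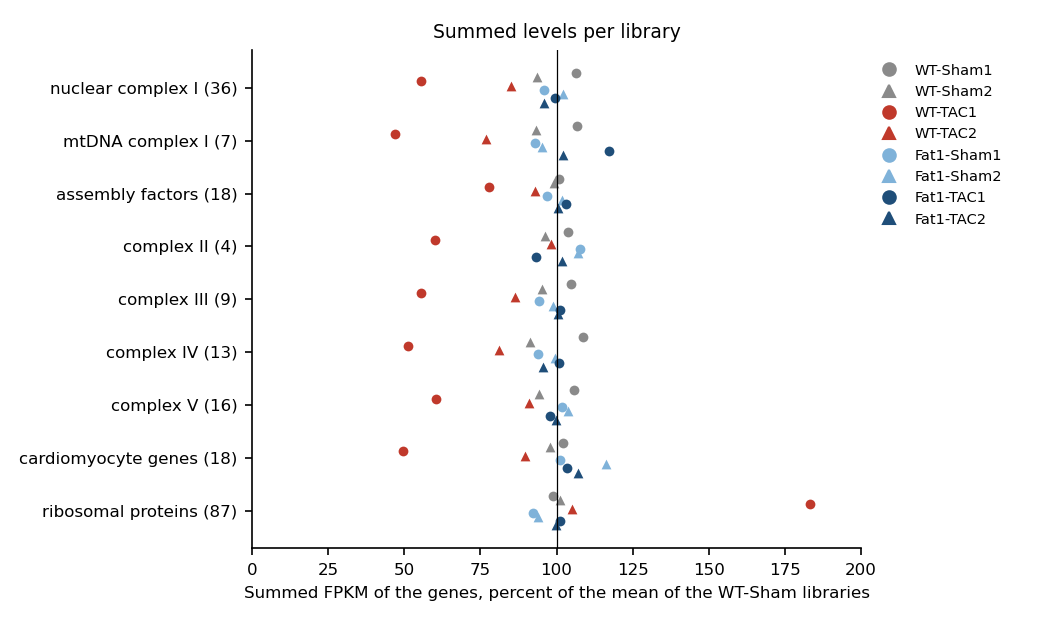
Summed FPKM of gene lists in each library as percent of the mean of the WT-Sham libraries, with the number of genes in parentheses (circles: replicate 1, triangles: replicate 2). WT-TAC1 was at 55.4% for the members, 46.9% for the subunits of mitochondrial DNA and 49.6% for cardiomyocyte genes, and at 183.4% for ribosomal protein genes.

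Markers of several other cells also differed in level between WT-TAC and WT-Sham. Skeletal muscle genes stayed within the WT-Sham range, and the fibroblast sums lay close to that of WT-Sham2. Of the 12 epithelial markers 11 were tested, and 6 were called higher in WT-TAC at the adjusted cutoff of limma, against 0.921% of all genes. In WT-TAC1 0 of the 12 were at 0 and in WT-TAC2 1 (Sftpb), while 5 were at 0 in WT-Sham1 (Epcam, Scgb3a2, Sftpa1, Sftpb and Sftpc) and 2 in WT-Sham2 (Scgb3a2 and Sftpa1). All 6 B and plasma cell markers were higher at the unadjusted cutoff, against 22.7% of all genes. They summed to 90.1 and 44.8 FPKM in WT-TAC against 4.08 and 3.27 in WT-Sham. In Fat1-TAC1 their sum was 2.49 and in Fat1-TAC2 37.2, near that of WT-TAC2. Macrophage markers summed to 437.4 and 342.9 FPKM in WT-TAC against 226.3 and 264.7 in WT-Sham. Adipocyte markers summed to 875.5 and 1262 FPKM against 392.7 and 528.3. Fibroblast markers summed to 1029 and 1022 FPKM against 622.9 and 995.2, endothelial ones to 202.0 and 267.8 against 292.1 and 312.6, blood genes to 5025 and 8435 against 10580.0 and 9666, and skeletal muscle genes to 311.9 and 195.7 against 187.5 and 333.4. The part of these other cells in the lower level of the members was not tested.

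The change of the members depended on the scaling. Relative to the median of ratios over all genes the median of the members in WT-TAC against WT-Sham was -0.97 with 30 members past the unadjusted cutoff, against 7.6% of all genes lower in that fit, while the median of all genes moved from 0.39 to -0.01. Relative to the 18 cardiomyocyte genes it was 0.01, with 17 members below and 19 above 0 and 0 past that cutoff. With the mitochondrially encoded genes left out of the scaling it was -0.67 with 22 members past it, against 2.95% of all genes lower. In Fat1-TAC against WT-TAC the median ran from -0.13 relative to cardiomyocyte genes, with 29 members below 0, to 0.94 relative to the median of ratios, with 31 past the unadjusted cutoff, against 8.88% of all genes higher. In Fat1-TAC against Fat1-Sham it lay between -0.01 and 0.09 under every way of processing. No scaling made a member pass the adjusted cutoff in any of the 5 comparisons.

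**Figure D5:**
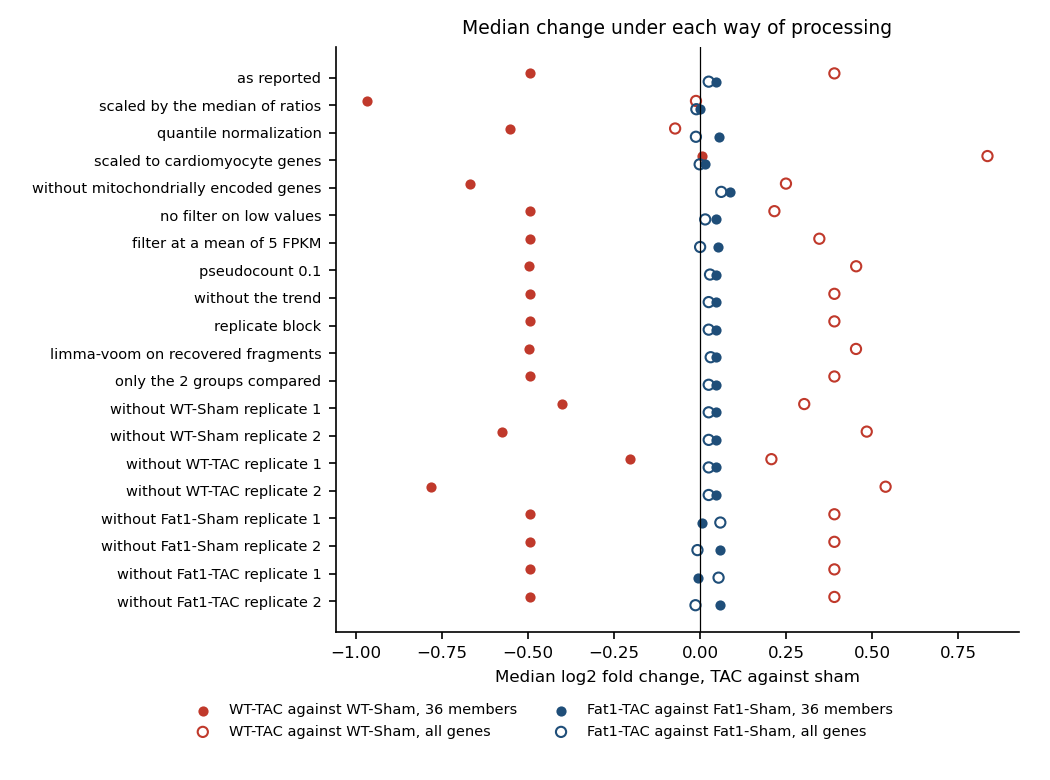
Median log2 fold change after TAC of the 36 members (filled) and of all genes tested (open) in WT (red) and fat-1 (blue) hearts, under each way of processing. For the members in WT hearts it ran from -0.97 with scaling by the median of ratios to 0.01 with scaling to cardiomyocyte genes, and in fat-1 hearts it lay between -0.01 and 0.09.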

How the data were processed

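RNA sequencing of mouse hearts (NEBNext Ultra kit, Illumina HiSeq) was processed by the authors, whose processing notes name HISAT2 and mm10/GRCm38, and the authors deposited 1 table of FPKM values with 8 libraries. Whole fragments could be recovered from these FPKM for all but 1 of 25929 genes (tolerance 0.01), which gave depths of 14163994 to 21218331 fragments. Gene identifiers were matched to GENCODE M21. Members and gene lists were chosen with earlier results of these data known.

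Genes with 1 FPKM or more in 2 or more libraries (14442) were tested as log2(FPKM + 1) with limma 3.58.1 (trended variance, 4 group means, R 4.3.3) and Benjamini-Hochberg adjustment. Fold changes on that scale understate low genes. Calls needed a fold change of 1.5 with an adjusted p under 0.1, or with an unadjusted p under 0.05, the cutoff of the study for respiratory genes. Any member could be named, except that 1 is counted but not reported here by itself. Values per library were given for the core subunits, the Ndufa4 pair and, in each other group, the 2 members lowest and the 2 highest in WT-TAC against WT-Sham, and at most 3 genes of another list were named, those with the largest change there. Ndufab1 was named because its spelling leaves it out, and values of Ndufa6, Ndufa8 and Ndufb3 were added after they were seen. Alternatives were other scalings, filters, pseudocount and variance models, a replicate block, leaving out each library and, chosen after seeing the data, limma-voom on recovered fragments and the medians of gene lists without each WT-TAC library. The scripts were tested on simulated data. Libraries of a group are independent samples per the labels, and p-values measure the spread between them only.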

Additional observations from a re-analysis of the deposited data

Results flagged for a closer look

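A closer look was taken at 9 members. Their WT-TAC libraries lay below both WT-Sham libraries, and their Fat1-TAC libraries lay above both Fat1-Sham libraries. This choice fixes a positive interaction of genotype and surgery in advance. Of all 36 members 35 had a positive one, with a median of 0.52, and Ndufv3, which was not among the 9, had 0.84. The interaction on the log2 scale was 0.73 for Ndufb3, 0.72 for Ndufs6, 0.71 for Ndufa4, 0.67 for Ndufa6 and 0.65 for Ndufv2. It was 0.62 for Ndufb9, 0.59 for Ndufa11, 0.56 for Ndufa7 and 0.53 for Ndufs4. None passed limma's test with Benjamini-Hochberg adjustment, the smallest adjusted p being 0.495, and 1.26% of all genes showed the same pattern of libraries. Without WT-TAC1 the median interaction over the 36 members was 0.26. Groups of 2 libraries are too small for a rule on outlying samples.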

How the results depend on the processing

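The counts and medians of members changed most with the scaling and with WT-TAC. For WT-TAC against WT-Sham, 30 members were lower at the unadjusted cutoff with scaling by the median of ratios (median -0.97), 16 with quantile normalization, 22 without mitochondrially encoded genes, 0 with scaling to cardiomyocyte genes (median 0.0059) and 1 with only the 2 groups fitted, against 10 as reported. Of all genes 7.6%, 7.63%, 2.95%, 0.152% and 0.415% were lower in these fits, against 1.11%. For Fat1-TAC against WT-TAC, the higher members numbered 31 (median 0.94), 19, 25, 0 (median -0.13) and 0 in the same order, against 8. Of all genes 8.88%, 9.57%, 4.18%, 0.0485% and 0.561% were higher, against 1.72%. There, 1 member was lower with scaling to cardiomyocyte genes, with a pseudocount of 0.1 and with limma-voom. Of all genes 37.4%, 24.6% and 23.5% were lower in these 3 fits. For the interaction, 7 members were positive with quantile normalization, 8 without mitochondrially encoded genes, 0 with cardiomyocyte scaling and 1 without the trend, against 4. Of all genes 2.99%, 1.65%, 0.0554% and 0.616% were positive in these fits, against 0.609%. The median was 0.95 with the median of ratios and -0.013 with cardiomyocyte scaling. Without the trend 1 member was negative, beside 6.22% of all genes. The cause was not tested. With 1 library left out, the lone library of its group being assumed to vary like the others, members called at the adjusted cutoff ran from 0 to 33 in WT-TAC against WT-Sham, 0 to 34 in Fat1-TAC against WT-TAC and 0 to 32 for the interaction. Those at the unadjusted cutoff ran from 0 to 32 lower and 0 to 1 higher, from 0 to 1 lower and 0 to 33 higher, and from 0 to 1 negative and 0 to 31 positive. The medians ran from -0.78 to -0.20, from 0.21 to 0.76 and from 0.26 to 0.79. The adjusted calls arose only without WT-TAC2, and the shares of all genes called in that fit are given in the Results. With the replicate number as a block, 9 members were lower in WT-TAC against WT-Sham at the unadjusted cutoff, beside 1.08% of all genes. In Fat1-TAC against WT-TAC 7 were higher, beside 1.67%. The medians were -0.49 and 0.47. Libraries with the same number did not deviate together (correlations of -0.135 to 0.024), so the numbers were not read as pairs. A minimum mean of 5 FPKM removed Ndufb2.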
